A study of Mus musculus with 21 samples.

Results

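Enterochromaffin-like cells are the endocrine cells of the acid-secreting stomach that make and store histamine, and 9 genes of their histamine and secretory granule machinery were followed here across mouse corpus cells. The genes are Hdc, Slc18a2 and Slc18a1 (histamine synthesis and amine transport), Chga, Chgb, Cpe, Scg3 and Scg5 (granule matrix and prohormone processing) and Syp (vesicle membrane). Each was taken from the value table as a probe set that the platform annotation assigns to that gene alone, and where a gene had several, the brightest one on average over the 21 arrays was taken. All 9 were found among 22180 genes measured. Syp had a second probe set with a mean of 4.07 on the log2 scale, which was not used.

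The cells came from the stomach corpus of mice and were divided in a cell sorter into 3 populations, Lgr5GFP high, low and negative, according to how strongly each cell glowed with the green fluorescent protein that reports Lgr5. The tamoxifen mice had been given tamoxifen by injection at 0.27 mg/g, and their cells were taken 24 hours later, with 4 arrays for each population, and the control mice were uninjected, with 3 arrays for each population. There was no vehicle group. Sorting runs were read from numbers in the sample titles, and every run so read held mice of 1 treatment. Effects of the compound, of being injected and of the run in which cells were sorted therefore cannot be told apart. The design text calls the arrays technical replicates from individual sorting runs, so the p-values measure the spread between runs, which may be technical. Strain, age and sex of the mice, and the number of mice per run, were not given in the sources used here.

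Histamine is made from histidine by histidine decarboxylase, the product of Hdc, and is pumped into granules by vesicular monoamine transporter 2, the product of Slc18a2. In the corpus, gastrin and nerve signals act on enterochromaffin-like cells, and the histamine they release drives acid secretion by parietal cells. Chromogranins pack the granule core in many endocrine cells, and carboxypeptidase E trims prohormones, so the granule genes are shared with ghrelin, somatostatin and gastrin cells. Hdc itself is also made by mast cells and basophils.

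Promoter sequence was available from RefSeq (GRCm38.p6) for 7 of the 9 genes, and 5 of these are printed. They are Hdc and the 4 promoters that held the core of the cAMP response element, a known endocrine promoter motif. Scg3 and Syp, like Hdc without the core, are not printed. Each line runs 5′ to 3′ on the gene's strand from 200 bases before the annotated start to 20 bases after it. Capitals mark TGACGT, the core of the element, on either strand. The windows lie at chr2:126618659-126618878 (minus strand) for Hdc, chr19:59260678-59260897 (plus strand) for Slc18a2, chr12:102554741-102554960 (plus strand) for Chga, chr2:132781442-132781661 (plus strand) for Chgb and chr2:113829072-113829291 (minus strand) for Scg5.
Hdc: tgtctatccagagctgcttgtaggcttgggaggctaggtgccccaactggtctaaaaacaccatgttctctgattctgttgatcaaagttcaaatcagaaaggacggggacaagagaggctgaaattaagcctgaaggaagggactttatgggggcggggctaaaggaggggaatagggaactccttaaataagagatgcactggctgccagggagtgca
Slc18a2: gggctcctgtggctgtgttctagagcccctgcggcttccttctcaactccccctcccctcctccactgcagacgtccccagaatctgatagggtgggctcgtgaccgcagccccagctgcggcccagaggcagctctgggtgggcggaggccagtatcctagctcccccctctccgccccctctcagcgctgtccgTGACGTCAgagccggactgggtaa
Chga: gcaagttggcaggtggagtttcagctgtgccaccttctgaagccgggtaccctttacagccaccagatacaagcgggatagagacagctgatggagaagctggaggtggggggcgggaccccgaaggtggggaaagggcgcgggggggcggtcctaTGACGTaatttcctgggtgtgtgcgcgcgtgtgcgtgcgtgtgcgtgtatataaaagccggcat
Chgb: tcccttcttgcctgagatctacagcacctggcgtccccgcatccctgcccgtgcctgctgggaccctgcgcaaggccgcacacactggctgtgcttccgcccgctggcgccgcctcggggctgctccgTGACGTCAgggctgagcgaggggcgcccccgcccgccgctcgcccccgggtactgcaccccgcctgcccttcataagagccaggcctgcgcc
Scg5: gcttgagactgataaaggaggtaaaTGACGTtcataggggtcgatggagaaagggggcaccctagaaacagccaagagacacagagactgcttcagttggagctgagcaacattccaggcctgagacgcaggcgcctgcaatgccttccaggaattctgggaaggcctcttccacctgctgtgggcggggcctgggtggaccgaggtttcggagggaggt

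The core was searched on both strands in a window of 250 bases before to 50 bases after each start, and 4 of the 7 promoters held it (Slc18a2, Chga, Chgb and Scg5), against 7.51% of 32851 RefSeq promoters. It began 4 bases before the start in Slc18a2, 44 bases before it in Chga, 72 bases before it in Chgb and 175 bases before it in Scg5, all on the gene's strand. Scg5 held another on the opposite strand, beginning at base 40 counted from the start base and outside the stretch printed, and the Slc18a2 and Chgb matches, being palindromes, read the same on both strands. The full palindrome TGACGTCA, which contains the core, was found in Slc18a2 and Chgb and in 1.79% of all promoters. The TATAAA letters were found in Chga alone of the 7 (13.6% of all promoters), after the annotated start, beginning at base 6 counted from the start base. GGGCGG was found in 6 of the 7 (35.7%) and CAGCTG in 3 of the 7 (16.3%). In Hdc, the GGGCGG run began 48 bases before the start. These matches describe the letters in this window and were not tied to any measurement of binding.

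The values are log2 signal as the authors deposited it, and a difference of 1 on this scale is a change in signal of 2-fold. As a guide to background, olfactory receptor genes had a 95th percentile of 4.16, and a group mean below that guide carries only a bound. There, a fold is given as "at least", taken against the guide. A difference was called at a Benjamini-Hochberg adjusted p under 0.05 over all 22180 genes in limma, and the share of all genes called in the same direction is given as background. Lgr5, the gene behind the sort, followed its labels: in controls its mean was 8.79 in the high, 7.56 in the low and 4.41 in the negative population, with 8.43, 6.70 and 4.59 in their tamoxifen counterparts. After tamoxifen Lgr5 itself was called lower in low cells (log2 difference -0.86 ± 0.21 SE, adjusted p = 0.0110), with no overlap between the groups. It was not called in high or negative cells (-0.35 and 0.18, adjusted p = 0.415 and 0.798). Array medians lay between 3.95 and 4.25.

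Before the results, 9 of the 21 arrays stand apart. Gast encodes gastrin, the hormone of G cells, which are known from the antrum and not from the corpus named in the labels. Its log2 level lay between 10.28 and 12.66 on these 9 arrays and between 4.87 and 7.61 on the other 12. The 9 were spread over all groups: 2 of 3 control high, 2 of 3 control low, 1 of 3 control negative, 1 of 4 tamoxifen high, 1 of 4 tamoxifen low and 2 of 4 tamoxifen negative arrays. Some granule genes were also higher on these arrays than on the other arrays of their group. In 5 of the 6 groups every Gast-bright array had a higher Syp level than the others, and Scg3 did the same in 5 groups, Hdc, Slc18a2, Chga, Chgb and Scg5 in 4, Slc18a1 in 3 and Cpe in 2. Every Gast-bright array was lower than the others for Cpe in 2 groups and for Hdc, Slc18a2, Chga and Scg3 in 1 each. Over the 21 arrays, departures from the group mean correlated with those of Gast at Pearson r = 0.82 for Syp and 0.80 for Scg5. The value was 0.74 for Scg3, 0.66 for Chgb, 0.56 for Slc18a2 and 0.41 for Cpe. It was lowest for Slc18a1 (0.30), Chga (0.28) and Hdc (0.17). The results are therefore given with these arrays and without them, a division made after the data were seen. Without them only 1 control high, 1 control low and 2 control negative arrays remain, and the lone arrays are assumed to vary like the other groups.

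**Figure D1:**
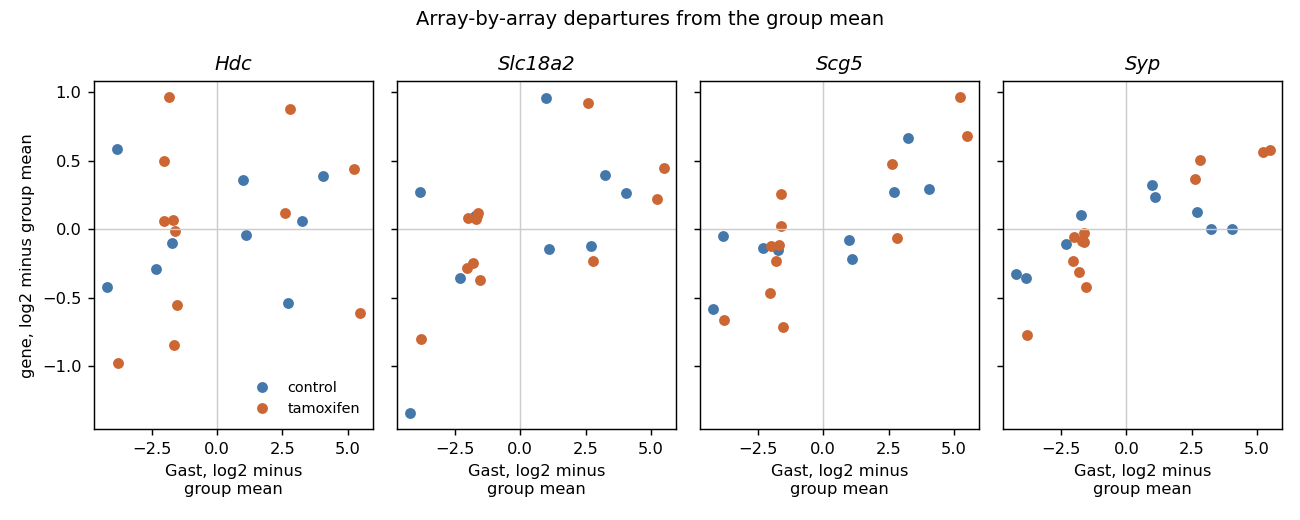
Departure of Hdc, Slc18a2, Scg5 and Syp from the group mean (vertical, log2) against the same departure of Gast (horizontal, log2), with 1 point per array and 21 arrays per panel, control in blue and tamoxifen in orange. Syp and Scg5 points rise from lower left to upper right, whereas Hdc points are scattered on both sides of 0 at either end.

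Hdc, the histamine-making enzyme, fell in Lgr5GFP low cells and rose in Lgr5GFP negative cells after tamoxifen, and in low cells it had the smallest adjusted p of the 9 genes. In control low cells it read 7.62, 8.40 and 8.10, and in tamoxifen low cells 5.31, 5.32, 4.70 and 5.69. In control negative cells the arrays read 7.28, 7.47 and 7.96, and in tamoxifen negative cells 10.57, 9.81, 9.68 and 8.72. All 4 tamoxifen arrays lay below every control array in the low population and above every control array in the negative population. The fall in low cells was 6.89-fold (log2 difference -2.79 ± 0.42 SE, adjusted p = 0.000253, 4 against 3 arrays), and the rise in negative cells was 4.37-fold (2.13 ± 0.42 SE, adjusted p = 0.00755). Without the Gast-bright arrays the fall kept its call (-2.51, adjusted p = 0.0406) and the rise lost it (1.83, adjusted p = 0.309). The rise also lost it without the first control negative array (1.98, adjusted p = 0.0577).

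In Lgr5GFP high cells Hdc lay near the background guide in either treatment. The control arrays read 5.19, 4.56 and 4.07 and the tamoxifen arrays 3.64, 4.75, 5.22 and 3.41. The groups overlapped, and the difference was -0.35 ± 0.42 SE (95% interval -1.22 to 0.52, adjusted p = 0.728).

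Slc18a2, which loads histamine into granules, followed Hdc in direction. Control low cells read 6.61, 8.91 and 8.35, and tamoxifen low cells 5.59, 5.58, 5.14 and 5.73. The transporter fell 5.44-fold there (log2 difference -2.44 ± 0.40 SE, adjusted p = 0.000606), with no overlap between the groups. The first control low array was much lower than the other two and was the only one of the 3 without bright Gast. With the Gast-bright arrays left out it stands alone for the control, and the difference shrank to -1.17 (adjusted p = 0.122). Control negative cells read 8.12, 8.57 and 8.74, and tamoxifen negative cells 9.68, 10.83, 10.03 and 9.11. The groups did not overlap, but the difference of 1.43 ± 0.40 SE missed the threshold (adjusted p = 0.0673). In high cells the arrays read 4.92, 4.50 and 4.52 in controls and 4.41, 3.68, 3.72 and 4.06 after tamoxifen, a difference of -0.68 ± 0.40 SE (adjusted p = 0.425).

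Slc18a1, the other vesicular monoamine transporter and the form of enterochromaffin and chromaffin cells, was at or near the background guide nearly everywhere. Its lowest and highest values over the 17 arrays outside tamoxifen negative cells were 3.53 and 4.36. Tamoxifen negative cells read 5.04, 7.13, 6.52 and 4.13. The last of these lay below one control negative array (3.53, 4.18 and 3.83), so the groups overlapped. Slc18a1 rose at least 2.93-fold (log2 difference 1.86 ± 0.43 SE, adjusted p = 0.0235), but of 7 fits that left out 1 array only those without tamoxifen negative array 1 or 4 kept the call (highest adjusted p 0.130). A fit to these groups alone (adjusted p = 0.168) and the fit without the Gast-bright arrays (1.47, adjusted p = 0.717) also lost it.

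**Figure D2:**
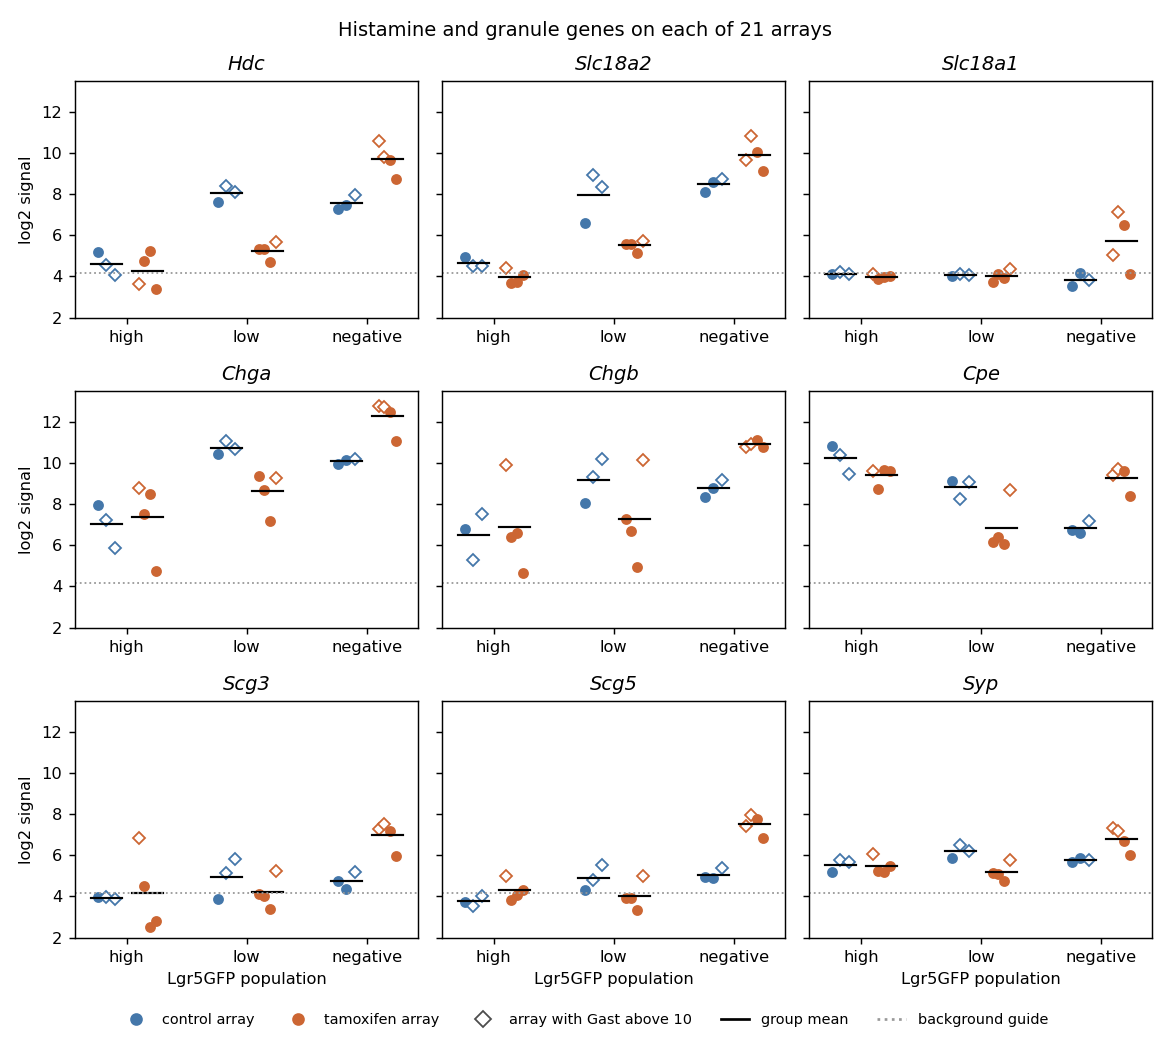
Log2 signal of the 9 genes (vertical) in Lgr5GFP high, low and negative cells (horizontal), with 1 point per array, control in blue and tamoxifen in orange, black bars for group means and open diamonds for arrays with Gast above 10. The dotted line is the background guide of 4.16, and Hdc and Slc18a2 show tamoxifen low arrays below, and tamoxifen negative arrays above, all control arrays of the same population.

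Chga encodes chromogranin A, a core protein of endocrine granules. Its arrays read 10.45, 11.07 and 10.69 in control low cells and 9.38, 8.71, 7.17 and 9.28 in tamoxifen low cells. Negative cells gave 9.94, 10.15 and 10.21 in controls and 12.76, 12.73, 12.50 and 11.09 after tamoxifen. Neither pair of groups overlapped. Neither difference passed the test, at -2.10 ± 0.72 SE in low cells (adjusted p = 0.0807) and 2.17 ± 0.72 SE in negative cells (adjusted p = 0.153). Fitted to these groups alone, both did (adjusted p = 0.0138 and 0.0180). High cells held the widest spread, at 7.96, 7.25 and 5.85 in controls and 8.81, 7.54, 8.49 and 4.75 after tamoxifen.

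Chgb (chromogranin B) had the largest standard error of the 9, with arrays of 1 group far apart. Tamoxifen low cells read 7.30, 6.68, 4.94 and 10.13 and tamoxifen high cells 9.89, 6.38, 6.61 and 4.65, and in each group the brightest array was the Gast-bright one. Control low cells read 8.04, 9.32 and 10.20 and control high cells 6.77, 5.28 and 7.52. Negative cells were far tighter, at 8.36, 8.78 and 9.18 in controls and 10.80, 10.93, 11.13 and 10.80 after tamoxifen, with no overlap. The tamoxifen differences were 0.36 ± 0.99 SE in high, -1.93 ± 0.99 SE in low and 2.14 ± 0.99 SE in negative cells, and none passed the test over all groups (adjusted p = 0.897, 0.273 and 0.379). A fit to the negative groups alone, which does not carry the spread of the high and low groups, gave an adjusted p of 0.00229.

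Cpe, which encodes carboxypeptidase E, was brightest in control high cells, where Hdc was dim, and after tamoxifen it fell in low cells and rose in negative cells. Control cells read 10.83, 10.40 and 9.47 in the high, 9.14, 8.25 and 9.10 in the low and 6.73, 6.59 and 7.20 in the negative population. Tamoxifen cells read 9.62, 8.73, 9.66 and 9.63, then 6.17, 6.42, 6.08 and 8.70, then 9.42, 9.70, 9.63 and 8.38 in the same order. The gradient of the controls from high to negative was not present after tamoxifen, when low cells were lowest. Cpe fell 3.96-fold in low cells (log2 difference -1.99 ± 0.49 SE, adjusted p = 0.0142) and rose 5.43-fold in negative cells (2.44 ± 0.49 SE, adjusted p = 0.00949).

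The fourth tamoxifen low array, at 8.70, overlapped the controls and was the Gast-bright array of its group. Without Gast-bright arrays the fall in low cells was -2.92 (adjusted p = 0.00805) and the rise in negative cells 2.34 (adjusted p = 0.0524). The fall lost its call without tamoxifen low array 1 or without control low array 1 or 3 (highest adjusted p 0.0751), and the rise without control negative array 1 or 2 (highest adjusted p 0.0565). High cells differed by -0.83 ± 0.49 SE (adjusted p = 0.425).

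Scg5 (secretogranin V, also called 7B2, the partner of prohormone convertase 2) had the smallest adjusted p of the 9 in negative cells. Its arrays read 4.93, 4.91 and 5.36 in controls and 7.44, 7.98, 7.76 and 6.84 after tamoxifen. It rose 5.44-fold (log2 difference 2.44 ± 0.35 SE, adjusted p = 0.000593), kept the call in all 7 fits that left out 1 array, and was the only member called without the Gast-bright arrays (2.38, adjusted p = 0.0158). Low cells read 4.29, 4.79 and 5.54 in controls and 3.91, 3.92, 3.32 and 5.00 after tamoxifen, a difference of -0.83 ± 0.35 SE that did not pass (adjusted p = 0.169). In high cells the control arrays read 3.72, 3.55 and 4.04 and the tamoxifen arrays 4.98, 3.83, 4.07 and 4.32 (0.53 ± 0.35 SE, adjusted p = 0.485).

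Scg3, a secretogranin that binds chromogranin A at the granule membrane, was dim outside tamoxifen negative cells. There it read 7.28, 7.52, 7.16 and 5.98, against 4.76, 4.36 and 5.20 in control negative cells. These groups did not overlap, and the difference of 2.21 ± 0.71 SE had an adjusted p of 0.134, or 0.0137 in a fit to these groups alone. Low cells read 3.87, 5.14 and 5.83 in controls and 4.12, 4.02, 3.40 and 5.25 after tamoxifen. The difference there, -0.75 ± 0.71 SE (adjusted p = 0.607), was -0.02 without the Gast-bright arrays. High cells read 3.98, 3.96 and 3.88 in controls and 6.85, 4.53, 2.53 and 2.82 after tamoxifen, the first of these on the Gast-bright array.

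Syp encodes synaptophysin, a membrane protein of small synaptic-like vesicles. Control low cells read 5.87, 6.52 and 6.20 and tamoxifen low cells 5.13, 5.10, 4.76 and 5.75. Syp fell 2.01-fold (log2 difference -1.01 ± 0.28 SE, adjusted p = 0.0291) with no overlap, but of 7 fits without 1 array only those without tamoxifen low array 4 or control low array 1 kept the call (highest adjusted p 0.151). The fit without Gast-bright arrays also lost it (-0.87, adjusted p = 0.169). Negative cells read 5.67, 5.88 and 5.78 in controls and 7.32, 7.18, 6.72 and 6.04 after tamoxifen (1.04 ± 0.28 SE, adjusted p = 0.0571). High cells read 5.18, 5.77 and 5.66 in controls and 6.07, 5.26, 5.18 and 5.46 after tamoxifen (-0.04 ± 0.28 SE, adjusted p = 0.960).

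Counted together, 4 of the 9 genes (Hdc, Slc18a2, Cpe and Syp) were called lower after tamoxifen in Lgr5GFP low cells, where 2.98% of all genes were called lower. In negative cells 4 of the 9 (Hdc, Slc18a1, Cpe and Scg5) were called higher, against 1.62% of all genes. The median difference of the 9 was -1.93 in low cells and 2.14 in negative cells, and the median over all genes was 0.01 and close to 0. The point estimates of all 9 were below 0 in low cells and above 0 in negative cells. In high cells limma called none of the 9, none had an unadjusted p under 0.05, and their median was -0.04. Without the Gast-bright arrays the counts were 2 in low cells (Hdc and Cpe) and 1 in negative cells (Scg5). In sorted bulk RNA, fewer cells of a type and less RNA per cell cannot be told apart.

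**Figure D3:**
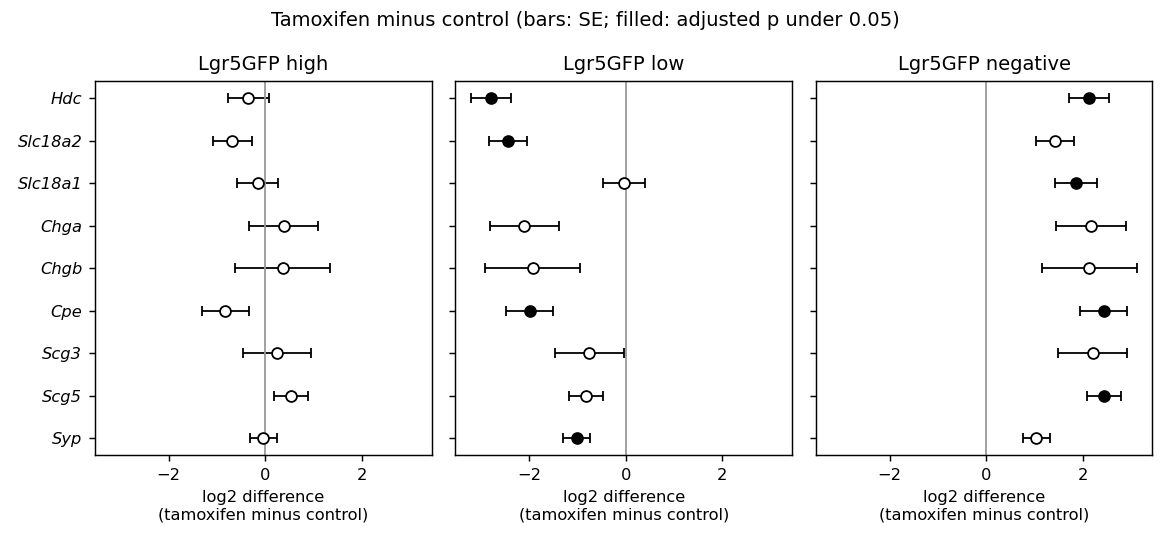
Log2 difference of tamoxifen minus control (horizontal) for each of the 9 genes in Lgr5GFP high, low and negative cells, with bars of 1 SE and filled points at an adjusted p under 0.05. Points of the low panel lie at or left of 0, with Hdc at -2.79, and those of the negative panel right of 0, with Scg5 at 2.44, and the high panel holds no filled point.

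The difference between the low and negative responses was itself tested as an interaction. Hdc differed by -4.91 ± 0.59 SE (adjusted p = 0.000207), Slc18a2 by -3.88 ± 0.57 SE (adjusted p = 0.00159) and Cpe by -4.43 ± 0.70 SE (adjusted p = 0.00305). Scg5 differed by -3.28 ± 0.50 SE (adjusted p = 0.00214) and Syp by -2.05 ± 0.40 SE (adjusted p = 0.0159). Syp lost its call without control low array 2 or control negative array 1 or 3 (highest adjusted p 0.0628). These 5 of 9 stand against 0.667% of all genes called in that direction. Chga, at -4.27 ± 1.02 SE, lay just outside the threshold (adjusted p = 0.0512). It was called with cyclic loess (adjusted p = 0.0384), array weights (0.00286), the compared groups alone (0.00440), the dimmest genes left out (0.0404), the random block (0.0405) and without tamoxifen negative array 4 (0.0171). Chgb, Scg3 and Slc18a1 were at -4.07, -2.96 and -1.89 (adjusted p = 0.265, 0.258 and 0.212). Without the Gast-bright arrays, Cpe alone was called (-5.26, adjusted p = 0.0110), with Hdc at -4.34 (adjusted p = 0.0694), Slc18a2 at -2.40 (adjusted p = 0.121), Scg5 at -2.95 (adjusted p = 0.0611) and Syp at -1.47 (adjusted p = 0.282).

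The high response was not called different from the negative response for any of the 9 in limma, although 6 of the 9 had an unadjusted p under 0.05. Cpe was nearest (-3.27, adjusted p = 0.0528), followed by Hdc (-2.48, adjusted p = 0.0863). With the sorting run as a replicate block 2 of the 9 were called, Cpe (-3.57, adjusted p = 0.0345) and Scg5 (-2.10, adjusted p = 0.0386). For high against low, limma called none and 5 of the 9 had an unadjusted p under 0.05.

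Among control populations, the histamine genes were dim in high cells, and Hdc and Slc18a2 were not called different between low and negative cells. From high to low cells Hdc was lower in high cells by a log2 difference of -3.44 (adjusted p = 0.000315), Slc18a2 by -3.31 (adjusted p = 0.000315) and Chga by -3.72 (adjusted p = 0.0165), with 0.645% of all genes called lower. Against negative cells, high cells were lower in Hdc (-2.96, adjusted p = 0.000134), Slc18a2 (-3.83, adjusted p = 9.22e-06), Chga (-3.08, adjusted p = 0.00990) and Scg5 (at least 1.87-fold, adjusted p = 0.0268), with 7.66% of all genes called lower. Cpe ran the other way and was higher in high than in negative cells (3.39 ± 0.53 SE, adjusted p = 0.000177, 4.64% of all genes called higher). It was the only member called between control low and negative cells (1.99, adjusted p = 0.0301, 1.85% of all genes called higher), and of 6 fits without 1 array only that without control low array 2 kept the call (highest adjusted p 0.143). Hdc, Slc18a2 and Chga differed there by 0.47 (95% interval -0.46 to 1.40, adjusted p = 0.730), -0.52 (adjusted p = 0.672) and 0.64 (adjusted p = 0.817).

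With 1 control high and 1 control low array left, a part of bright Gast in lost calls cannot be told apart from lost replication. The arrays left out are the Gast-bright ones, 2 of the 3 in the high and in the low group. Without them no member was called between high and low cells, with Hdc at -2.44 (adjusted p = 0.195), Slc18a2 at -1.70 (adjusted p = 0.154) and Chga at -2.49 (adjusted p = 0.676). Of high against negative cells, 2 calls were left (Slc18a2 and Cpe), and Hdc was at -2.19 (adjusted p = 0.0558). Of low against negative cells, Slc18a2 was then called lower (-1.73, adjusted p = 0.0346). Chga lost its call against negative cells without control high array 3 (-2.49, adjusted p = 0.0596) and against low cells without that array (-3.13, adjusted p = 0.0583) or without control low array 2 (-3.55, adjusted p = 0.0916). Scg5 kept its call only without control high array 3 (highest adjusted p 0.122).

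After tamoxifen the negative cells stood above both GFP-bearing populations. In low cells all 9 members were called lower than in negative cells, with 1.73% of all genes called lower: Hdc by -4.44 (adjusted p = 6.05e-07), Slc18a2 by -4.40 (adjusted p = 4.61e-07), Chga by -3.63 (adjusted p = 0.00350), Cpe by -2.44 (adjusted p = 0.00412) and Syp by -1.63 (adjusted p = 0.000889) on the log2 scale. Scg5 was at least 10.2-fold lower (adjusted p = 2.00e-06) and Slc18a1 at least 2.93-fold lower (adjusted p = 0.0269). The Chgb call (-3.65, adjusted p = 0.0368) was kept, of 8 fits that left out 1 array, only without tamoxifen low array 4 (highest adjusted p 0.139), and was lost with the sorting run as a replicate block (-3.80, adjusted p = 0.0693) and with trended and robust variance (adjusted p = 0.0844). The Scg3 call (-2.79, adjusted p = 0.0253) was kept only without tamoxifen low array 4 or negative array 4, and the Slc18a1 call only without low array 4 or negative array 1 or 4 (highest adjusted p 0.0917 and 0.129). Trended and robust variance also ended the Scg3 call (adjusted p = 0.0512), and a fit to these groups alone the Slc18a1 call (adjusted p = 0.166). With the Gast-bright arrays left out, 7 of the 9 were called, with Slc18a1 at -1.39 (adjusted p = 0.327) and Chga at -3.37 (adjusted p = 0.123).

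In high cells 8 of the 9 were called lower than in negative cells, with 6.97% of all genes called lower. Slc18a2 was at least 54.0-fold lower (adjusted p = 2.34e-09), Hdc lower by a log2 difference of -5.44 (adjusted p = 1.72e-08), Chga by -4.87 (adjusted p = 8.13e-05), Chgb by -4.03 (adjusted p = 0.00621), Scg5 by -3.21 (adjusted p = 3.06e-06), Scg3 by -2.80 (adjusted p = 0.00817) and Syp by -1.32 (adjusted p = 0.00215). Slc18a1 was at least 2.93-fold lower (adjusted p = 0.00722). A fit to these groups alone lost the Scg3 and Slc18a1 calls (adjusted p = 0.0907 and 0.116). Cpe was the exception, at 0.13 ± 0.46 SE (adjusted p = 0.904). Among the other arrays, those without bright Gast, 7 of the 8 kept their call, and Slc18a1 did not (-1.38, adjusted p = 0.149). Between high and low cells of tamoxifen mice, Cpe was higher in high cells (2.56, adjusted p = 0.00293, 1.46% of all genes called higher) and Slc18a2 at least 2.56-fold lower (adjusted p = 0.0244, 1.77% of all genes called lower), a call that of 8 fits without 1 array was kept only without high array 1 or 4 or low array 3 (highest adjusted p 0.0743). Hdc differed there by -1.00 (adjusted p = 0.185).

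Populations with the same run number in their titles gave the same picture run by run. Low minus negative for Hdc was 0.34, 0.94 and 0.14 in the 3 control runs and -4.50, -4.36 and -4.02 in the 3 tamoxifen runs that supplied both. For Cpe it was 2.41, 1.66 and 1.90 in control runs and -3.53, -3.21 and -2.30 in tamoxifen runs. The sign was thus the same in all runs of a treatment and opposite between treatments for both genes. Slc18a2 gave -1.51, 0.34 and -0.40 in control runs and -5.24, -4.46 and -3.96 in tamoxifen runs, and Scg5 -0.64, -0.12 and 0.19 against -4.07, -3.83 and -3.52. High minus low for Hdc was -2.44, -3.85 and -4.02 in control runs and -1.67, -0.57, 0.52 and -2.28 in the 4 tamoxifen runs.

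**Figure D4:**
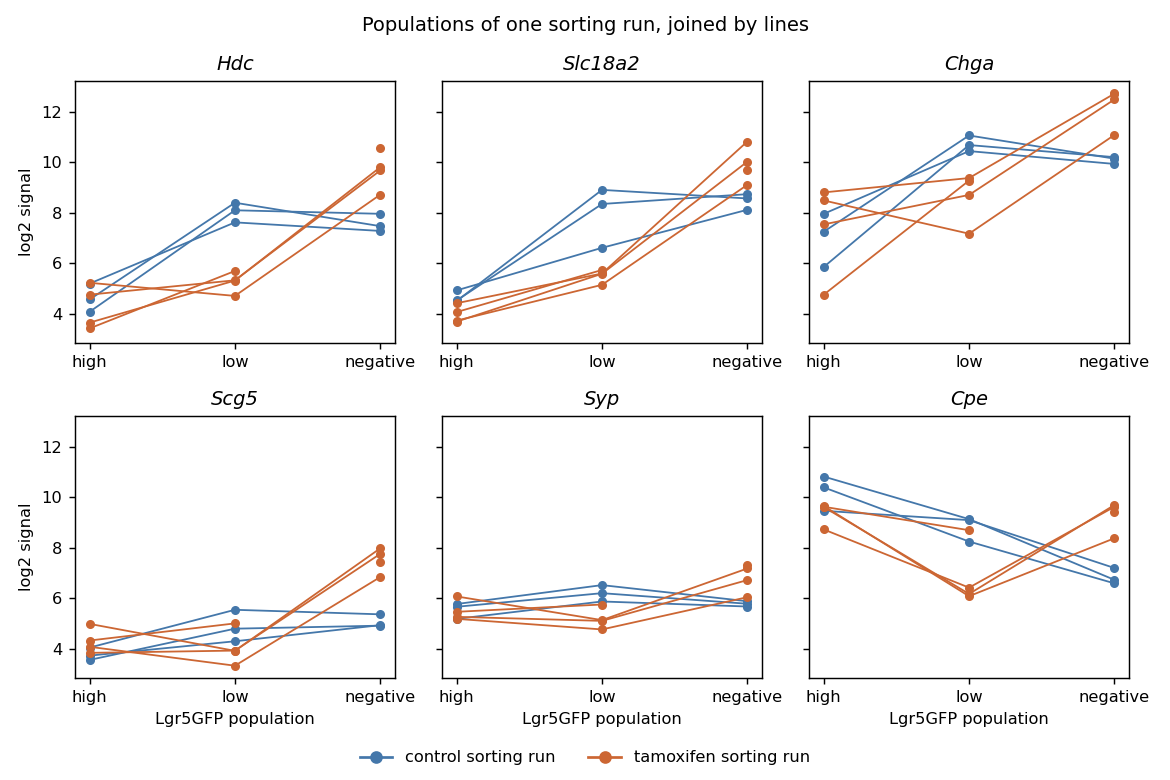
Log2 signal (vertical) of Hdc, Slc18a2, Chga, Scg5, Syp and Cpe in Lgr5GFP high, low and negative cells (horizontal), control in blue and tamoxifen in orange. Lines join arrays of 1 sorting run, as read from the sample titles. Hdc climbs steeply from low to negative in each tamoxifen run that has both, and falls by 0.14 to 0.94 in control runs. Cpe falls from low to negative in controls and climbs after tamoxifen. A negative array and a run of high and low arrays have no counterpart in the other populations.

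Ordered by group mean, Hdc was highest in tamoxifen negative cells (9.69), then in control low (8.04) and control negative cells (7.57), whose arrays overlapped. Below these came tamoxifen low (5.26), control high (4.61) and tamoxifen high cells (4.26), each overlapping its neighbour. Slc18a2 had the same top and the same bottom, at 9.91 in tamoxifen negative and 3.97 in tamoxifen high cells, with control negative (8.48) and control low cells (7.96) overlapping between them. Cpe had another order, from control high (10.24) through tamoxifen high (9.41), tamoxifen negative (9.28) and control low (8.83) to tamoxifen low and control negative cells (both 6.84).

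Across the 21 arrays the genes most like Hdc, among 12040 genes with a mean above the background guide and no predicted-gene name (Gm, Rik, LOC and the like), were Vtn (vitronectin, Pearson r = 0.965), Cel (carboxyl ester lipase, r = 0.956), Slc18a2 (r = 0.951), Chga (r = 0.932) and Lhfpl5 (r = 0.921). Those most like Chga were Hdc (r = 0.932), Ghrl (ghrelin, the hormone of X/A-like cells, r = 0.903), Lhfpl5 (r = 0.897), Slc18a2 (r = 0.885) and Vtn (r = 0.882). The arrays share 6 groups and their sorting runs, so these are descriptions of pattern. For departures from the group mean, r with Hdc was 0.45 for Vtn, 0.65 for Cel, 0.30 for Slc18a2, 0.67 for Chga and 0.73 for Lhfpl5. With Chga it was 0.68 for Ghrl, 0.65 for Lhfpl5, 0.33 for Slc18a2 and 0.30 for Vtn. Vtn fell in low cells (-2.76, adjusted p = 0.000233) and rose in negative cells (2.30, adjusted p = 0.00409). Cel fell in low cells (-3.46, adjusted p = 8.01e-06) and was at 1.14 in negative cells (adjusted p = 0.136). Within the 9, the correlation with Hdc ran from 0.95 for Slc18a2 and 0.93 for Chga through 0.83 for Scg5, 0.79 for Syp, 0.77 for Chgb, 0.69 for Scg3 and 0.57 for Slc18a1 to -0.02 for Cpe. For departures from the group mean, every member but Cpe had a lower value, Slc18a2 (0.30) and Chga (0.67) among them. The other members were at 0.17 for Scg5, 0.26 for Syp, 0.19 for Chgb, 0.11 for Scg3, 0.20 for Slc18a1 and 0.36 for Cpe.

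Other genes of the granule and its release were taken from lists of pathway genes. For these lists and those below, the background in low cells was 2.98% of all genes called lower and 5.35% higher. In negative cells it was 1.62% called higher and 0.703% lower. Of 18 other granule and prohormone genes measured, 4 were called lower in low cells after tamoxifen (Ptprn2, Rab3b, Rab27a and Pam) and 3 higher in negative cells (Fam183b, Ptprn and Cadps), and the list medians were -0.53 and 1.17. Ptprn2, a receptor-type phosphatase of dense-core granules, fell in low cells by 1.58 on the log2 scale (adjusted p = 0.00315), and its relative Ptprn rose in negative cells by 2.16 (adjusted p = 0.0246). Pam, which amidates peptide hormones, fell in low cells by 1.09 (adjusted p = 0.0339). Pcsk1, a prohormone convertase, was at -1.37 in low cells (adjusted p = 0.226) and 2.42 in negative cells (adjusted p = 0.0522).

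Of 20 exocytosis and synaptic vesicle genes, 3 were called lower in low cells (Vamp2, Rab3a and Rph3al) and 7 higher in negative cells, with list medians of -0.48 and 0.46. In negative cells Syt5, a calcium sensor of vesicle fusion, rose by 1.52 (adjusted p = 0.000331), Snap25, a SNARE of the plasma membrane, by 2.03 (adjusted p = 0.00744), Syt7 by 1.08 (adjusted p = 0.0180) and Unc13a, a vesicle priming factor, by 0.73 (adjusted p = 0.0201). Snap25 and Syt5 also differed between the low and negative responses (-3.31, adjusted p = 0.00601 and -2.18, adjusted p = 0.000689). In high cells 1 gene of both lists was called, Vamp2, which fell by 1.00 (adjusted p = 0.0236), with 1.04% of all genes called lower.

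Of 12 amine handling genes measured, 1 was called lower in low cells and 2 higher in negative cells. Maob, an amine-degrading enzyme, fell in low cells by 1.87 (adjusted p = 0.000771), and Slc29a4, a monoamine transporter of the plasma membrane, rose in negative cells by 1.48 (adjusted p = 0.0205). Slc6a4, the serotonin transporter, rose in negative cells at least 1.17-fold (adjusted p = 0.0131). Ddc, which makes serotonin and dopamine, and Tph1, the serotonin-making enzyme of the gut, were at 0.97 (adjusted p = 0.0888) and 0.20 (adjusted p = 0.947) in negative cells.

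Of 11 receptors, Cckbr, the gastrin receptor by which enterochromaffin-like cells are driven, rose in negative cells by 2.03 ± 0.42 SE (adjusted p = 0.0108), from 5.26 to 5.59 in controls to 5.68 to 8.56 after tamoxifen. Ptger3, a prostaglandin E2 receptor, rose by 2.17 (adjusted p = 0.0102). In low cells limma called none of the receptors, and 2 had an unadjusted p under 0.05. The Cckbr responses of low and negative cells differed by -2.95 (adjusted p = 0.0193), and those of Sstr2, a somatostatin receptor, by -1.49 (adjusted p = 0.0429). Of 12 endocrine transcription factors, St18 was the only one called in low or negative cells, lower in low cells (at least 2.65-fold, adjusted p = 0.0190) and higher in negative cells (1.98, adjusted p = 0.0246).

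**Figure D5:**
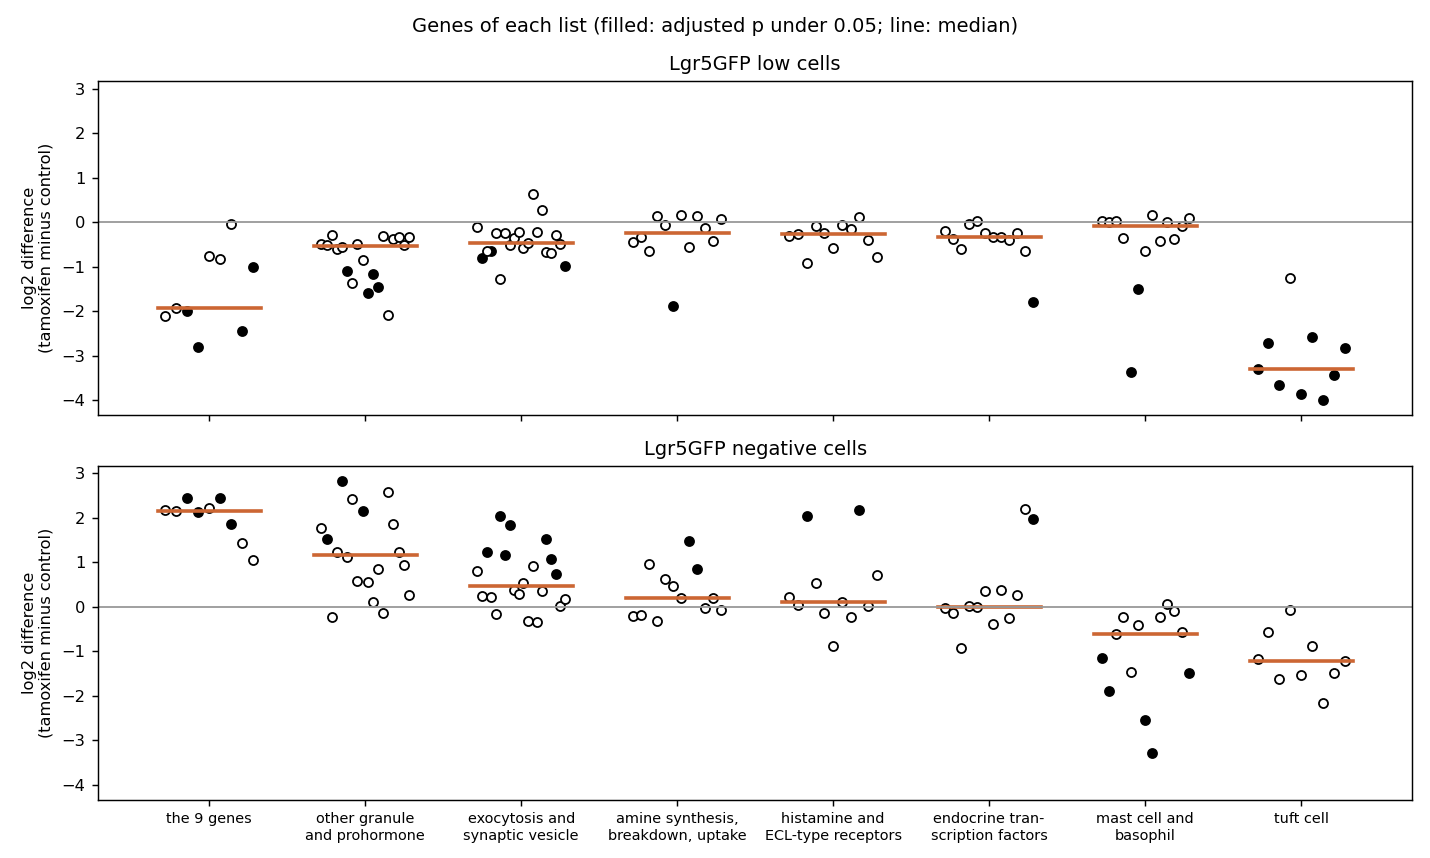
Log2 difference of tamoxifen minus control (vertical) for the 9 genes and for 7 other gene lists (horizontal) in Lgr5GFP low and negative cells, with 1 point per gene, filled at an adjusted p under 0.05, and an orange line at the list median. The 9 genes have medians of -1.93 and 2.14, whereas tuft cell genes have a median of -3.30 in low cells and mast cell genes one of -0.61 in negative cells.

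Other cell types that the gates could hold moved as well. Mast cells also make histamine. Of 13 mast cell and basophil genes, 2 were called lower in low cells after tamoxifen, as Hdc was, with 2.98% of all genes called lower. In negative cells 5 of the 13 were called lower, opposite to Hdc, with 0.703% of all genes called lower. The 5 were led by Mcpt2 (a mast cell protease, -3.29, adjusted p = 0.000125) and Cpa3 (mast cell carboxypeptidase, at least 3.02-fold lower, adjusted p = 0.000593). The mean level of the list ran from 4.60 to 5.10 over control negative arrays and from 3.50 to 4.04 over tamoxifen negative arrays. In low cells it ran from 3.61 to 3.98 in controls and from 3.21 to 3.33 after tamoxifen, and Mcpt2 stayed at or below 4.01 in both. The high-affinity IgE receptor genes Fcer1a and Ms4a2 had group means below the background guide in all 6 groups.

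Tuft cell genes fell in low cells beside Hdc, with 8 of 9 called lower, against 2.98% of all genes. Their list mean there was 8.46 to 9.77 in controls and 5.40 to 6.94 after tamoxifen. In negative cells limma called 0 of the 9 (6 had an unadjusted p under 0.05). Parietal cell genes were called lower in 6 of 10 cases in low cells and 4 of 10 in negative cells, and mucous neck cell genes in 2 and 3 of 4. Chief cell genes were called lower in 3 of 7 cases in low cells and 0 of 7 in negative cells. Of 4 surface pit cell genes, limma called 0 in either population. The background was 2.98% of all genes called lower in low and 0.703% in negative cells. Of 5 immune cell genes, 1 was called higher and 1 lower in low cells and 1 was called higher in negative cells. Cd68, a macrophage gene, rose by 2.79 in low cells (adjusted p = 6.78e-07) and by 2.14 in negative cells (adjusted p = 4.57e-05), and Ptprc, the common leukocyte antigen, was at least 5.68-fold lower in low cells (adjusted p = 0.0209). Of 9 enteric neuron and glia genes, 1 was called higher in low cells and 1 in negative cells, with 5.35% and 1.62% of all genes called higher. The part of these cell types in the differences of the 9 genes was not tested.

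The hormones of other endocrine cells, which share the granule genes, were bright in the same populations. Ghrl had group means of 11.58 and 11.51 in control low and negative cells and of 9.76 and 12.61 after tamoxifen, and Sst (somatostatin) of 10.35 and 9.73, then 9.62 and 11.34. Ghrl differed by -1.83 in low cells (adjusted p = 0.233) and 1.10 in negative cells (adjusted p = 0.689), and Sst by -0.73 (adjusted p = 0.644) and 1.61 (adjusted p = 0.393). Of the 11 genes in that list 1 was called, Mboat4, the enzyme that acylates ghrelin, which rose in negative cells by 1.93 (adjusted p = 0.0129). Of 5 platelet genes none was called, or had an unadjusted p under 0.05, in limma in any population.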

How the data were processed

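Per the labels, RNA from sorted corpus cells was amplified and hybridised to 21 arrays, and the authors deposited 1 table of log2 signal per probe set. RMA, oligo, limma 3.26.8 and R 3.2.3 are named in the submitters' processing notes without saying what each did. The deposited log2 values were used unchanged. The table has 41345 probe sets, of which 23521 are assigned to a single gene, and the brightest per gene left 22180 genes, with no filter on level. The number of arrays limits the precision.

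Means of the 6 groups were fitted in limma 3.58.1 (R 4.3.3, lmFit and eBayes, 15 residual degrees of freedom), two-sided, for 12 comparisons, and the procedure was tested on simulated data. Alternatives are given in the closing section. The 9 genes and the gene lists were chosen with earlier results of these data known. Named genes were all 9 members, up to 4 called genes of smallest adjusted p in each other list and comparison, the 5 most correlated with Hdc and with Chga, and markers of other cell types where their level bears on a member. Beyond that rule, Gast, Pcsk1, Ddc, Tph1, Ghrl and Sst were named after their values were seen. Control negative samples carry low in 1 label and negative in 2 others, which were followed. Numbers in the titles were taken to mark shared sorting runs, which the titles themselves do not state. Deviations from group means correlated between same-run arrays with a median of 0.11 (-0.16 to 0.41, 19 pairs), and between arrays of different runs with -0.07 (56 pairs).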

Additional observations from a re-analysis of the deposited data

Results flagged for a closer look

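The tamoxifen response differed between Lgr5GFP low and negative cells in the test of that difference for 5 genes, given as low minus negative on the log2 scale: Hdc by -4.91, Slc18a2 by -3.88, Cpe by -4.43, Scg5 by -3.28 and Syp by -2.05. In each of them the response was below 0 in low cells and above 0 in negative cells.

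Single arrays stood far from the rest of their group in 3 of 27 gene and group combinations of 4 arrays. Chance gives about 1 in 20 such cases. Chga was 11.09 on the fourth tamoxifen negative array, against 12.50 to 12.76 on the others. Cpe was 8.73 on the second tamoxifen high array, against 9.62 to 9.66. Cpe was also 8.70 on the fourth tamoxifen low array, against 6.08 to 6.42, and this array was the one of its group with bright Gast, at 12.40.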

How the results depend on the processing

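Alternatives were another scaling (cyclic loess or quantile), averaging the probe sets of a gene, trended and robust variance, array weights, the compared groups alone, the dimmest 25% of genes left out, the sorting run as a random or fixed block, each array left out, and, chosen after seeing the data, the 9 Gast-bright arrays left out. Of 41 called differences, 27 kept their call without each array in turn, and none turned in sign under any alternative. Estimates that turned had not passed the test. Without the Gast-bright arrays the tamoxifen differences in high cells became -1.04 for Chga, -0.89 for Chgb, -0.69 for Scg3 and 0.12 for Syp. Slc18a1 in low cells became 0.06 with cyclic loess and 0.05 with quantile scaling, and Cpe between tamoxifen high and negative cells became -0.17 with the replicate block. Leaving out single arrays gave, in high cells, -0.21 to 1.26 for Chga, -0.64 to 1.10 for Chgb, -0.65 to 0.80 for Scg3 and -0.24 to 0.07 for Syp. It gave -0.13 to 0.08 for Slc18a1 in low cells, -1.00 to 0.15 for Slc18a2 between control low and negative cells and -0.18 to 0.35 for Cpe between tamoxifen high and negative cells.

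Without the Gast-bright arrays, which leaves 12 arrays, the number of the 9 genes called was 2 for tamoxifen in low cells, 1 in negative cells, 2 for control high against negative, 2 for control low against negative, 0 for control high against low and 1 for the low minus negative interaction. Array weights gave 8 for tamoxifen in negative cells, 1 for tamoxifen high against low, 2 for the high minus negative interaction and 8 for the low minus negative one. The high minus negative interaction also gave 1 with its groups alone, 1 without the dimmest genes, 1 with the random block and 2 with the replicate block. Without single arrays the counts ran from 2 to 5 for tamoxifen in low cells, 1 to 6 in negative cells, 0 to 1 for control low against negative, 1 to 2 for tamoxifen high against low and 0 to 5 for the high minus negative interaction. Over all genes, 1846 were called for tamoxifen in low cells (742 without the Gast-bright arrays, 2357 with array weights) and 515 in negative cells (35 without the Gast-bright arrays, 1621 with array weights). Where no fewer arrays entered, the cause of a change was not tested. The fixed replicate block could be fitted for comparisons of populations only, since each run held 1 treatment, and beyond the high minus negative counts and Chgb between tamoxifen low and negative cells, it changed no other call.

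Arrays per group limit what can be seen: the 95% interval for Chgb in high cells, -1.70 to 2.42, holds changes of either sign.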
